A study of Mus musculus with 96 samples.

Results

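Translation initiation factors are the proteins that bring the small ribosomal subunit, the initiator tRNA and the mRNA together at the start codon. eIF2 carries the initiator tRNA and is recharged by the exchange factor eIF2B, and stress kinases slow this cycle by phosphorylating eIF2. The many-subunit factor eIF3 holds the small subunit and binds the mRNA, while the cap-binding protein eIF4E, the scaffold eIF4G and the helicase eIF4A open the message at its 5′ end. The 4E-BP proteins block eIF4E until the nutrient-sensing kinase complex mTORC1 phosphorylates them. Protein synthesis is one of the processes known to vary over the day in tissues with a circadian clock.

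The genes described here are those whose symbol starts with Eif and a digit, without pseudogenes, and whose mean level over all 96 libraries was at least 1 RPKM, where RPKM means reads per kilobase of a gene's length and per unit of sequencing depth. They were selected on their names and this mean level. The rule gave 53 genes of the 12144 that passed the same threshold. A further gene, Eif4e1b, an oocyte form of the cap-binding protein, was the nearest gene below the threshold, far under it at a mean of 0.0948, and Eif5a2 was the nearest above it at 1.34. The set was chosen by the measured rhythm of Eif3b, which differed between RERE and WT, so its values in those genotypes are given as a description with no test.

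The libraries were made from poly(A) RNA of epidermis that dispase had freed from back skin. The donors were C57BL/6 males, 8 weeks old, with 12 h light and 12 h dark and free access to chow. Arntl encodes the clock activator BMAL1. In the stopFL allele Arntl is blocked until Cre recombinase acts. WT mice were Arntl wt/wt and carried both the K14Cre and the Syt10-Cre transgene. RERE mice were stopFL/stopFL with both transgenes, EpiRE mice were stopFL/stopFL with K14Cre alone, which acts in epidermis and other keratin 14 expressing epithelia, and BRE mice were stopFL/stopFL with Syt10-Cre alone, which acts in brain, including the central clock. Thus every group carried at least 1 Cre transgene, and BMAL1 was restored where the Cre is or was active. There were 4 mice per genotype at each of 6 zeitgeber times (ZT, hours after lights on), 4 h apart.

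Estimated depth ran from 11.3 to 32.4 M reads per library, with a median of 16.5 M. Keratinocyte markers dominated all libraries, and the summed level of 5 endothelial markers never passed 0.67 RPKM. Other summed markers reached 192 RPKM for blood in WT, 183 for Langerhans cells in EpiRE and 98.1 for T cells in BRE. Those of hair matrix and shaft reached 83.1 in RERE, and those of skeletal muscle 53.9 in BRE. Most of each of these sums was a single gene, Krt25 for hair (mean 51.7 RPKM) and Acta1 for muscle (mean 35.9). The next highest were Msx2 at 5.06 and Mylpf at 2.67. Melanocyte and fibroblast markers reached 31.1 and 21.2 in WT, and adipocyte markers 2.05 in BRE. All 13 core clock genes were called rhythmic in WT and in RERE, 7 of 13 in EpiRE and 2 of 13 in BRE. The level of Arntl itself does not check the genotype labels, since reads outside the blocked region count as well. In bulk tissue, fewer cells of a type and less RNA per cell cannot be told apart.

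The promoters of a few genes are shown first, because 2 sequence features known from clock and growth control can be read directly in them. One is the E-box CACGTG, the palindromic site bound by CLOCK and BMAL1. The other is a run of pyrimidines that begins with C at the transcription start, the mark of the 5′ terminal oligopyrimidine (TOP) mRNAs whose translation depends on mTORC1. In the following stretches of the 250 bases upstream of the start, from the RefSeq table for build GRCm38.p6 (mm10), the E-boxes are in capitals. Eif5a2 (chr3:28781027-28781276, plus strand) is shown for having a pair of them and the largest rhythm, Eif4h (chr5:134639410-134639659, minus strand) for its rhythm in BRE, and Eif3f (chr7:108934165-108934414, plus strand) for its rhythm in WT.
Eif5a2: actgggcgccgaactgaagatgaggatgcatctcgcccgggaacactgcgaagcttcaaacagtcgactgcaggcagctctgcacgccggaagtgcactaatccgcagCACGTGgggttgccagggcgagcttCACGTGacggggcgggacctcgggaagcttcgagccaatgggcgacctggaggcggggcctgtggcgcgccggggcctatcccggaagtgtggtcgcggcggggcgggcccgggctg
Eif4h: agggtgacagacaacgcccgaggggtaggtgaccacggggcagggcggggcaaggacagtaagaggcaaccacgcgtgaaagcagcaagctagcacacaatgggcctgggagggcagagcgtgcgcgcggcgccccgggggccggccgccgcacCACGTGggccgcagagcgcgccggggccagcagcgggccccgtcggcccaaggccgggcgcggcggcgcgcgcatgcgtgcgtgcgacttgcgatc
Eif3f: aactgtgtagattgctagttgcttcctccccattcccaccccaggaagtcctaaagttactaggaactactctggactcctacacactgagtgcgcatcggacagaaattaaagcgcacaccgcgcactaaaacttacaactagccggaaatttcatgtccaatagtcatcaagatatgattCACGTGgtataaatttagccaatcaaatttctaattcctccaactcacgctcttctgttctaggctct

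The Eif5a2 E-boxes begin at -142 and -117 from the start, that of Eif4h at -96 and that of Eif3f at -68. Start windows (250 bases before to 50 after) were read for 43 of the 53 genes. An E-box lay in 12 of their 56 windows, or 21.4%, against 7.15% of all 32851 windows. Windows of a gene can overlap: the Eif5a E-boxes at -185 and -74 are the same site seen from different starts. The background windows cover 27025 genes, including genes below the level threshold. The shares are thus not a like comparison and were not tested. The 10 genes that held one were Eif1b, Eif3a, Eif3f, Eif3k, Eif4a1, Eif4e, Eif4g1, Eif4h, Eif5a and Eif5a2. Of these, 4 (Eif3f, Eif4e, Eif5a and Eif5a2) were called rhythmic in WT by the test described further on, which called 41.5% of the 53 genes and 34.4% of all genes. The D-box TTATGTAA, a site for the clock output factors of the DBP family, was in none of the 56 windows and in 0.938% of all windows.

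The second feature is shown in windows of 30 bases, 10 before the start and the rest after it, with a pyrimidine run at the start in capitals. Eif3f and Eif2s3x (chrX:94212632-94212661, minus strand) are shown because theirs were the windows with such a run. Eif3b (chr5:140419295-140419324, plus strand) and Eif3g (chr9:20898571-20898600, minus strand) are shown as eIF3 subunits that peaked at another time than Eif3f, whose window is chr7:108934405-108934434.
Eif3f: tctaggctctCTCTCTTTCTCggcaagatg
Eif2s3x: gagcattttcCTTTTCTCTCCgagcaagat
Eif3b: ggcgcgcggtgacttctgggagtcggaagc
Eif3g: acccgggctgggagctgcgtggagttaaga

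In Eif3f and in Eif2s3x, which encodes the X-linked gamma subunit of eIF2, the run was 11 bases long. A C at the start followed by at least 4 pyrimidines occurred in 2 of the 56 windows (3.57%), against 2.51% of all windows. The windows of Eif3b and Eif3g held none. Neither did those of Eif3k and Eif3m, not called in WT, with fitted peaks at ZT12.3 and ZT9.7. Eif3e and Eif3h, which peaked near Eif3f in WT, had no window. Eif2s3x was not called rhythmic in WT (adjusted p = 0.124, limma). Whether such a run goes with a peak time was not tested. These matches describe the letters in RefSeq start windows and do not show that a factor binds there.

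The initiation factor genes spanned a wide range of levels, and for most of them the means of the 4 genotypes lay close together. The highest was Eif1, which guards start codon choice, at a mean of 348.9 RPKM, followed by Eif5a at 251, Eif3f at 245 and the helicase gene Eif4a1 at 224. The 13 eIF3 subunit genes lay between 32.0 and 245, with a median of 78.6. The 11 genes of the cap complex and its helpers lay between 11.3 and 224, and the 4 inhibitors of the cap complex between 12.9 and 52.5. The 5 subunits of the exchange factor eIF2B were lower, at 3.67 to 27.0. The 4 kinases of eIF2 were lower again, from 2.80 for the amino-acid sensor Eif2ak4 to 11.8 for the heme-regulated Eif2ak1.

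**Figure D1:**
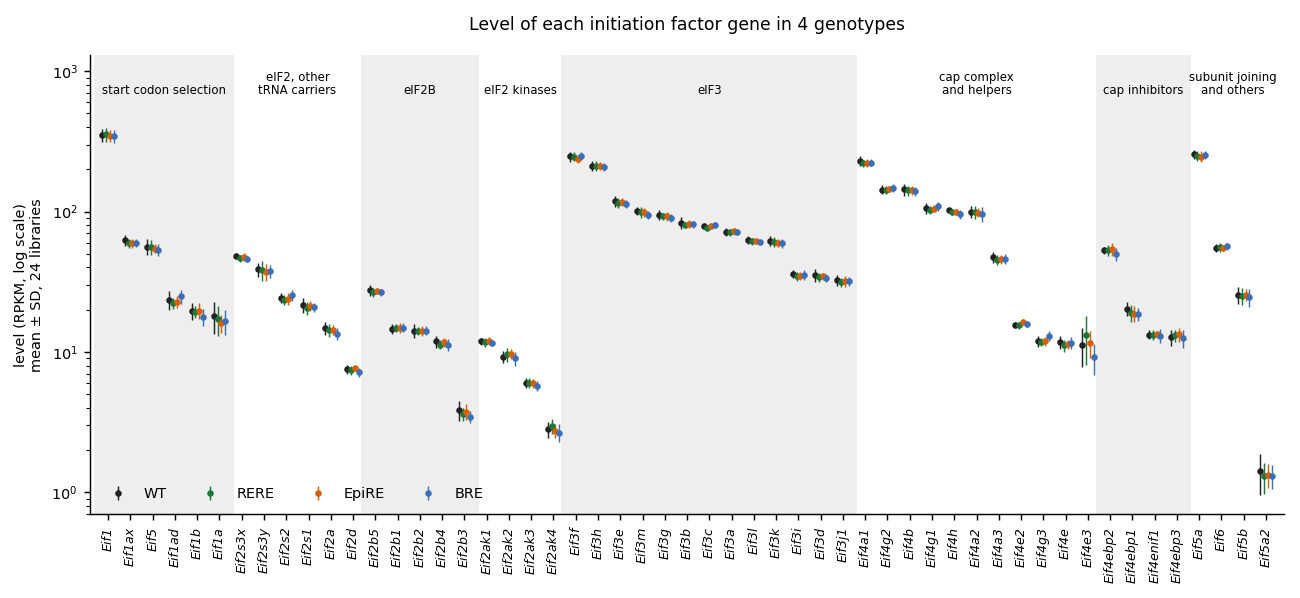
Mean level of each of the 53 genes in RPKM on a log axis, ordered by role and then by level, with 1 point per genotype and bars for the SD over 24 libraries. The genotypes lie almost on top of each other for most genes, and the widest gap is that of Eif4e3.

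The mean of the highest genotype over that of the lowest had a median of 1.05 across the 53 genes. The largest ratio was 1.44, for the cap-binding protein gene Eif4e3, highest in RERE and lowest in BRE. The table of each genotype was normalized by itself, so these means stand side by side and were not tested.

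In WT, 22 of the 53 genes (41.5%) had a daily rhythm, against 34.4% of all 12144 genes tested. A gene was called rhythmic when the F test of a 24 h cosine curve, fitted with limma over 24 libraries, gave an adjusted p below 0.05. The rhythms were shallow. The median gap between fitted peak and trough was 0.19 log2 over the 53 genes and 0.23 over all genes tested, and only Eif5a2 and Eif4e3 among the called genes reached 1.5-fold. The called genes were spread over the roles, with 6 of 13 for eIF3, 6 of 11 for the cap complex, 3 of 5 for eIF2B, 3 of 6 for eIF2 and other carriers of the initiator tRNA, and 0 of 4 for the eIF2 kinases. The counts for eIF3 and for all 53 include Eif3b, whose rhythm in WT entered the choice of the set. In the authors' deposited JTK_CYCLE results, 12 of the 53 had a q below 0.05 in WT, against 20.8% of all genes. In their other deposited rhythm test, BIOCYCLE, 5 of the 53 did, and Eif5a2 did not (q = 0.289). The BIOCYCLE share over all genes was not worked out.

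**Figure D2:**
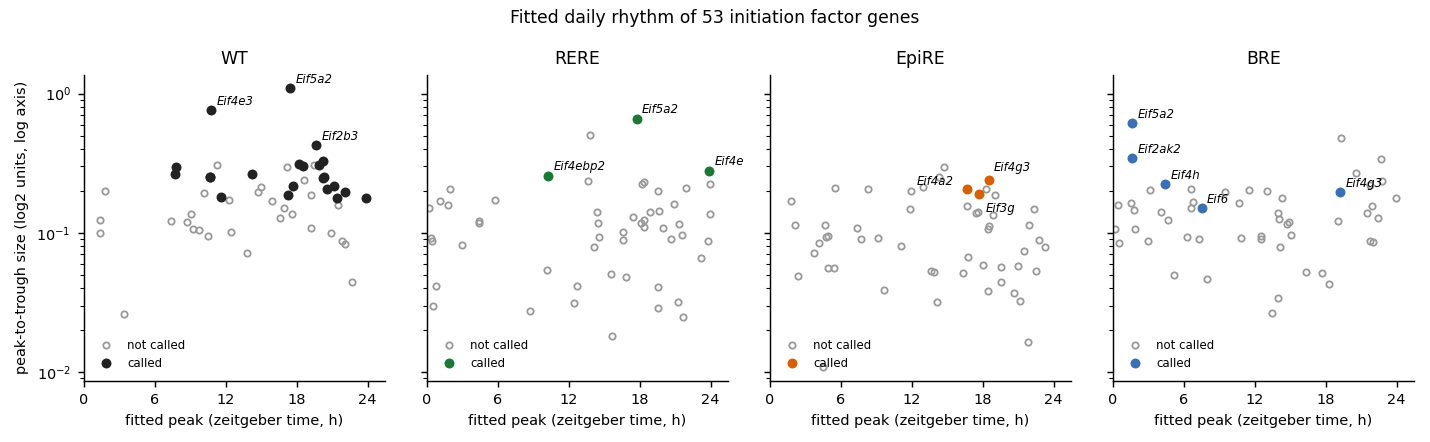
Fitted peak-to-trough difference (log2 units on a log axis) against fitted peak time (zeitgeber hours) for the 53 genes in each genotype, with called genes filled. The WT panel holds 22 filled points, RERE and EpiRE hold 3 each, and BRE holds 5.

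The largest rhythm in WT was that of Eif5a2, the second gene for eIF5A, a factor that helps ribosomes through difficult peptide bonds and carries the modified amino acid hypusine. At ZT20 the 4 mice had 2.04, 2.04, 2.14 and 2.43 RPKM, and at ZT4 they had 0.730, 0.748, 0.932 and 0.959. All mice at ZT20 were thus above all mice at ZT4, and above every mouse at each other time. The means from ZT0 on were 1.20, 0.842, 1.26, 1.25, 1.78 and 2.16, with SDs of 0.11 to 0.23. The fitted peak-to-trough difference was 1.09 ± 0.16 log2 (SE, n = 24), or 2.13-fold, with the peak at ZT17.5 (adjusted p = 0.000104, limma). Eif5a2 rests on a median of about 108 estimated reads per library. The other gene for eIF5A, Eif5a, the abundant form, moved by 0.18 ± 0.053 log2 with a peak at ZT21.4 (adjusted p = 0.0345, limma). Rescaling each library by the median of its gene ratios ended the call of Eif5a (adjusted p = 0.384) and kept that of Eif5a2 (adjusted p = 8.99e-05).

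Among the scaffolds, Eif4g3, which links the cap to the ribosome, had the smallest adjusted p of the set in WT. Its 4 values at ZT20 were 13.4, 13.4, 13.6 and 13.8 RPKM. At ZT8 they were 10.4, 10.8, 10.9 and 11.2, all below every value at ZT20. Its means rose from 10.8 at ZT8 through 11.4, 12.4 and 13.5 at the next 3 times, and then fell from 12.5 at ZT0 to 11.2 at ZT4. From trough to peak the fit spanned 0.31 ± 0.041 log2, with a peak at ZT19.9 (adjusted p = 4.22e-05, limma).

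As deposited, the eIF3 genes called in WT peaked near 2 times of day. Eif3e, Eif3f and Eif3h peaked close to the change from light to dark, at ZT10.7, ZT10.7 and ZT11.6. Eif3g and the gene of the cap-contacting subunit, Eif3d, peaked in the dark, at ZT17.2 and ZT20.2. The peak of Eif3b, at ZT18.5, is a description, since its rhythm in WT entered the choice of the set. The remaining 7 of 13 (Eif3a, Eif3c, Eif3i, Eif3j1, Eif3k, Eif3l and Eif3m) were not called.

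Eif3f had values of 248, 257, 267 and 307 RPKM at ZT12. At ZT0 it had 214, 219, 226 and 239.9, all lower than at ZT12. Its fitted difference was 0.25 ± 0.047 log2 (adjusted p = 0.00126, limma). Eif3e moved from 105, 106, 107 and 117 RPKM at ZT0 to 121.5, 121.7, 130.6 and 144.9 at ZT12, again without overlap, with a fitted difference of 0.25 ± 0.053 (adjusted p = 0.00352, limma), though without replicate 3 of every group the call was lost. Eif3h had a smaller difference of 0.18 ± 0.051 (adjusted p = 0.0263, limma).

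Eif3b ran the other way. Its WT values at ZT20 were 87.3, 93.8, 96.6 and 98.4 RPKM, while at ZT4 they were 73.4, 73.7, 77.2 and 77.7, and the sets did not overlap. The fitted difference was 0.30 ± 0.046 log2. Eif3d moved by 0.25 ± 0.069 (adjusted p = 0.0228, limma) and Eif3g by 0.19 ± 0.056 (adjusted p = 0.0362, limma). After the rescaling by median ratios neither passed (adjusted p = 0.088 and 0.0567), while Eif3e, Eif3f and Eif3h did (adjusted p = 0.0013, 0.0006 and 0.0062) with peaks from ZT10.4 to ZT11.0. Eif3k and Eif3m, not called as deposited, then passed too (adjusted p = 0.0152 and 0.0495, limma), with peaks at ZT11.4 and ZT9.54. Eif3d shares 2151 exonic bases with the antisense gene Gm17638, and whether strand was used in counting is not given in the sources used here.

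**Figure D3:**
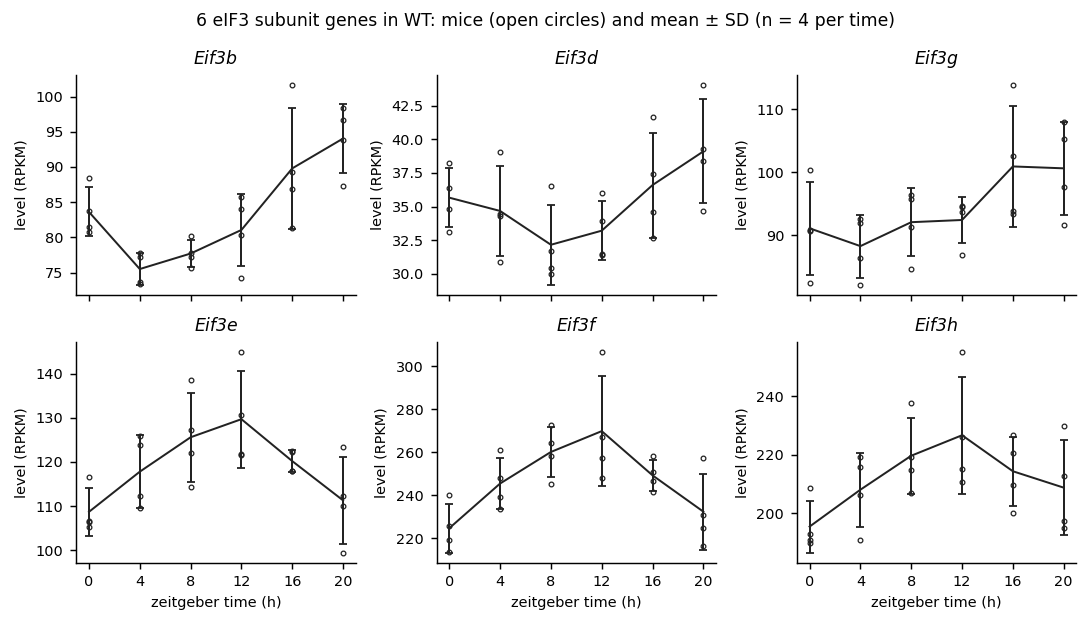
Level in RPKM over zeitgeber time in WT for the eIF3 genes called there, with open circles for mice and lines for the mean ± SD (n = 4 per time). The upper row (Eif3b, Eif3d, Eif3g) is highest at ZT16 or ZT20 and the lower row (Eif3e, Eif3f, Eif3h) at ZT12.

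The other called genes peaked from the light phase to the end of the dark phase. Eif2s1, the alpha subunit of eIF2 that the stress kinases phosphorylate, rose from 18.6, 18.7, 19.4 and 20.2 RPKM at ZT12 to 22.1, 23.2, 23.5 and 25.7 at ZT20. All 4 mice at ZT20 were above those at ZT12, with a fitted difference of 0.33 ± 0.068 log2 and a peak at ZT20.2 (adjusted p = 0.00304, limma). The call was lost without replicate 2 of every group. The eIF2B subunit genes Eif2b2, Eif2b3 and Eif2b5 peaked between ZT18.2 and ZT20.5, with differences of 0.31 ± 0.075, 0.43 ± 0.11 and 0.21 ± 0.066.

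In the light phase, Eif4b, a helper of the eIF4A helicase, and Eif2a, an alternative carrier of initiator tRNA, peaked at ZT7.7 and ZT7.8, with 0.26 ± 0.061 and 0.30 ± 0.071 log2. Eif4e3 peaked at ZT10.8 with 0.76 ± 0.18 log2, the second largest difference of the set in WT, and its mice scattered widely: at ZT8 they had 9.98, 10.0, 10.6 and 21.4 RPKM. Eif4ebp1, which encodes 4E-BP1, peaked at ZT14.3 with 0.27 ± 0.074. The remaining called genes (Eif1ax, Eif2d, Eif4a3, Eif4e and Eif4g2) peaked from ZT17.7 to ZT23.9 with differences of 0.18 to 0.25.

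The genes not called in WT, beside the 7 of eIF3 and the 4 eIF2 kinases, were spread over the same roles. They were Eif1, Eif1a, Eif1ad, Eif1b and Eif5 among the start codon factors, and Eif2s2, Eif2s3x, Eif2s3y, Eif2b1 and Eif2b4 among eIF2 and eIF2B. In the cap complex they were Eif4a1, Eif4a2, Eif4e2, Eif4g1 and Eif4h, with the inhibitors Eif4ebp2, Eif4ebp3 and Eif4enif1, and lastly Eif5b and Eif6. Their fitted differences ran from 0.026 log2 in Eif2ak1 to 0.31 log2 in Eif1a (adjusted p = 0.373, limma), a gene with near-identical copies.

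How many of the peaks lay late in the dark depended on the scaling. As deposited, 12 of the 22 peaks fell between ZT18 and ZT24, a share of 54.5%, against 47.8% of all 4174 genes called in WT. After rescaling by median ratios, 17 of the 53 genes were called (32.1%, against 31.8% of all genes). Of these, 3 peaked there, against 30.5% of all called genes. The shifts of the WT libraries in that rescaling ran from -0.087 to 0.085 log2, which is not small beside rhythms of 0.2 log2.

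RERE differed from WT in the rhythm of Eif3b, by the rule that led to this set. At ZT20 and ZT4, the times of highest and lowest mean in WT, the RERE mice overlapped. They had 80.6, 80.8, 82.5 and 84.1 RPKM at ZT20, and 79.4, 80.6, 81.8 and 88.1 at ZT4. The fitted peak in RERE was at ZT0.44, against ZT18.5 in WT, so these times do not show the full range in RERE. The fitted difference over the day was 0.087 ± 0.034 log2 in RERE, against 0.30 ± 0.046 in WT. The same comparison called 1 of the 53 genes, Eif3b itself, beside 0.453% of all genes. As Eif3b led to the choice of the set, nothing is read from that count. The next genes by size of test were Eif3e (0.25 in WT and 0.12 in RERE), Eif2a (0.30 and 0.13), Eif4g3 (0.31 and 0.12), Eif4b (0.26 and 0.079) and Eif2b2 (0.31 and 0.032), each as fitted peak to trough in log2 units. None of these passed (adjusted p from 0.128 to 0.233, limma). Other genes had the larger fitted difference in RERE, among them Eif4e, Eif4h, Eif4ebp2 and Eif6, and did not pass either.

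Within RERE, 3 of the 53 genes (5.66%) were called rhythmic, against 16.4% of all genes. They were the cap-binding protein gene Eif4e, the inhibitor gene Eif4ebp2 and Eif5a2. Eif4e, the protein through which the cap is read, had 12.0, 12.7, 13.2 and 13.2 RPKM at ZT0. At ZT8 it had 9.09, 9.61, 10.3 and 11.6, all lower than at ZT0. The means from ZT0 on were 12.8, 11.5, 10.2, 10.7, 10.4 and 11.4. The fitted difference was 0.28 ± 0.062 log2 with a peak at ZT23.9 (adjusted p = 0.0099, limma), a call lost without replicate 1 or replicate 2 of every group. Eif4e was also the only one of the 53 with a q below 0.05 for RERE in the authors' deposited JTK_CYCLE results, against 8.52% of all genes. In their BIOCYCLE results for RERE none of the 53 passed. The q of Eif4e was 0.213 there, and the smallest was 0.0952, for Eif4ebp2.

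Eif4ebp2, which encodes the eIF4E inhibitor 4E-BP2, peaked in RERE at the opposite time, ZT10.3. Its values were 52.6, 54.9, 64.3 and 64.3 RPKM at ZT8, and 43.8, 49.7, 50.3 and 53.9 at ZT20, where the highest mouse was above the lowest at ZT8. Means from ZT0 on were 49.8, 50.7, 59.0, 56.8, 52.7 and 49.4. The fitted difference was 0.26 ± 0.059 log2 (adjusted p = 0.0132, limma), and the call was lost with the 6 times as separate levels in place of a cosine (adjusted p = 0.0688) and without replicate 1 or replicate 4 of every group (0.151 and 0.0742). Eif5a2 moved by 0.66 ± 0.18 log2 with a peak at ZT17.8 (adjusted p = 0.0406, limma), and this call was lost in 6 of the alternatives tried.

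The EpiRE epidermis had rhythms in 3 of the 53 genes (5.66%), against 2.87% of all genes. Eif4g3 kept a dark-phase peak there, at ZT18.5, with 12.8, 13.1, 13.1 and 13.3 RPKM at ZT20. At ZT8 the mice had 9.98, 10.8, 11.3 and 11.3, so that the sets did not overlap. The EpiRE means from ZT0 on were 11.9, 11.3, 10.9, 12.0, 12.5 and 13.1. Peak and trough differed by 0.24 ± 0.040 log2 (adjusted p = 0.00998, limma), a call lost without replicate 1 or replicate 2 of every group. In the authors' deposited JTK_CYCLE results Eif4g3 was the only one of the 53 with a q below 0.05 for EpiRE, against 0.156% of all genes. In their BIOCYCLE results for EpiRE its q was 0.267, the smallest of the 53.

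Eif4a2, whose helicase takes the same place in the cap complex as that of Eif4a1, had 103, 103, 107 and 108 RPKM at ZT12 in EpiRE and 87.2, 89.5, 90.7 and 91.5 at ZT4. The groups did not overlap. Means from ZT0 on were 98.7, 89.7, 91.1, 105, 102 and 102, and the fitted difference was 0.21 ± 0.046 log2 with a peak at ZT16.7 (adjusted p = 0.0347, limma), lost in 4 alternatives. Reads from Eif4a1 and Eif4a2 may be hard to tell apart, as these genes are close copies. Eif3g moved by 0.19 ± 0.045 log2 with a peak at ZT17.7 (adjusted p = 0.0479, limma), a call lost in 9 of 11 alternatives. Eif3b was not called in EpiRE, at 0.14 ± 0.044 log2 with a peak at ZT17.4 (adjusted p = 0.147, limma), and it passed narrowly without replicate 3 of every group (adjusted p = 0.0486), whose library at ZT20 was lowest at 74.9 RPKM against 88.6 to 91.2.

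BRE epidermis, in which 2 of 13 core clock genes were called, had rhythms in 5 of the 53 genes (9.43%), against 17.1% of all genes. They were Eif5a2, Eif4h, Eif2ak2, Eif6 and Eif4g3. In the authors' deposited JTK_CYCLE results, Eif4h, Eif2ak2 and Eif5a2 had a q below 0.05, against 5.67% of all genes. In their BIOCYCLE results for BRE none of the 53 passed, and the smallest q was 0.125, for Eif5a2. After the rescaling by median ratios 9 of the 53 (17.0%) passed, against 12.7% of all genes, among them Eif3f, at 0.16 ± 0.048 log2 and ZT10.7 as deposited (adjusted p = 0.0547, rescaled 0.0235, limma).

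Eif5a2 peaked in BRE at ZT1.6, a time of day at which its WT level was falling. At ZT0 the 4 BRE mice had 1.46, 1.48, 1.52 and 1.61 RPKM. At ZT12 they had 0.798, 1.08, 1.12 and 1.13, all lower than at ZT0. The BRE means from ZT0 on were 1.52, 1.48, 1.37, 1.03, 1.05 and 1.40. Its rhythm there spanned 0.61 ± 0.12 log2 (adjusted p = 0.00526, limma).

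Eif4h, which stimulates the eIF4A helicase, had 78.9, 85.5, 87.5 and 91.6 RPKM at ZT16 in BRE, below the 97.4, 97.8, 99.8 and 106 at ZT0. Its means held at 100.3, 100.3 and 100.6 from ZT0 to ZT8, and were 94.5, 85.9 and 92.0 at the later times. The fitted difference was 0.22 ± 0.043 log2 with a peak at ZT4.4 (adjusted p = 0.00611, limma). In WT its difference was 0.044 ± 0.032. Eif2ak2, the double-stranded RNA sensor kinase PKR, had 9.82, 10.4, 10.5 and 10.7 RPKM at ZT4 and 7.49, 7.95, 8.17 and 8.19 at ZT12 in BRE. The groups did not overlap, and the fitted difference was 0.34 ± 0.068 log2 with a peak at ZT1.6 (adjusted p = 0.00746, limma). It was the only eIF2 kinase called in any genotype. Without replicate 2 of every group, the BRE calls of Eif5a2, Eif4h and Eif2ak2 were lost.

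Eif6, which keeps the large ribosomal subunit apart from the small one, was highest in BRE at ZT8, with 59.7, 61.4, 62.9 and 63.7 RPKM, above all of the 50.3, 50.8, 54.4 and 55.5 at ZT16. The fitted difference was 0.15 ± 0.040 log2 (adjusted p = 0.0349, limma), and the call was lost in 6 alternatives. Eif4g3 peaked at ZT19.2 with 0.20 ± 0.053 (adjusted p = 0.038, limma), and was lost in 5. Its 4 mice at ZT20 had 14.1, 14.4, 14.5 and 14.9 RPKM, all above the 11.8, 12.0, 12.2 and 12.2 at ZT8. Eif3b was not called in BRE, at 0.13 ± 0.039 with a peak at ZT22.4 (adjusted p = 0.0618, limma). It passed without replicate 1 of every group (0.0488) and without the library least like the others, BRE ZT0 replicate 1 (0.0395, chosen after seeing the data), while rescaling gave 0.261.

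**Figure D4:**
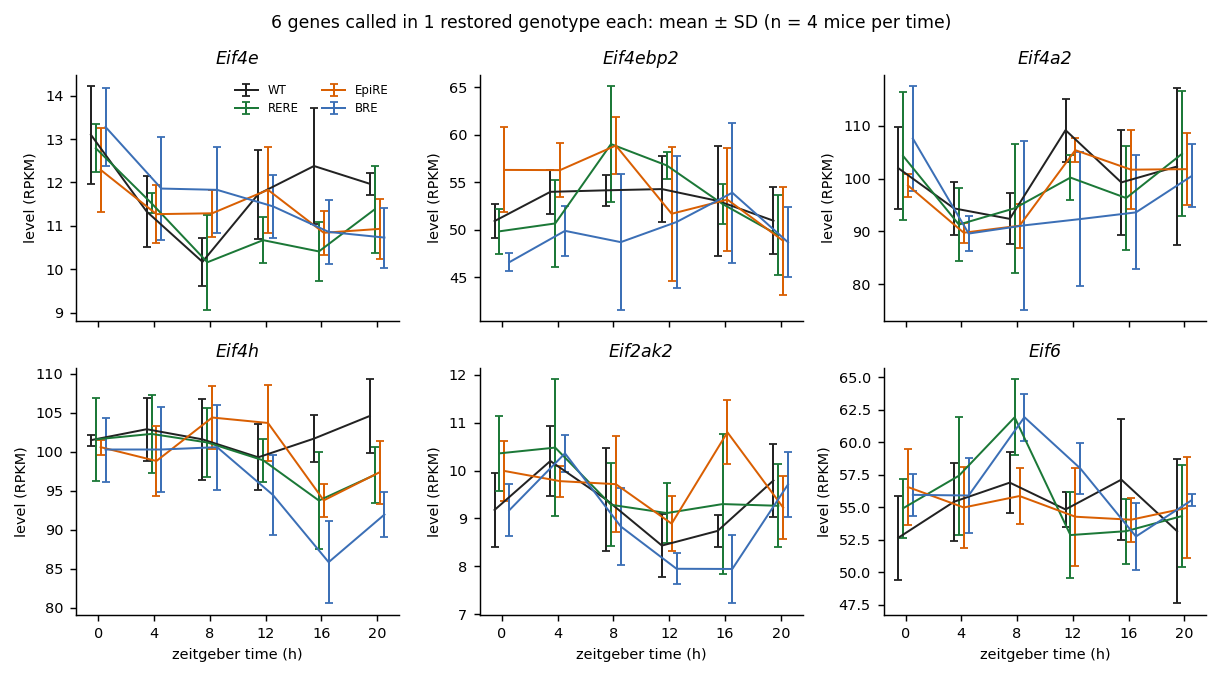
Level in RPKM over zeitgeber time (mean ± SD, n = 4 mice per time) in all 4 genotypes for Eif4e and Eif4ebp2, called in RERE, Eif4a2, called in EpiRE, and Eif4h, Eif2ak2 and Eif6, called in BRE. Points are shifted sideways to keep the bars apart, and the BRE line of Eif4h is lowest at ZT16.

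The rhythm itself was then compared between genotypes, by the F test of the genotype by cosine and genotype by sine terms over the 48 libraries of a pair. The size of a difference is the peak-to-trough size of the difference between both fitted curves. These comparisons share libraries and are not independent of each other.

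Eif5a2 differed most. Its rhythm in BRE was not that of WT, with a difference curve of 1.51 ± 0.20 log2 and peaks at ZT1.6 and ZT17.5 (adjusted p = 1.88e-06, limma). EpiRE differed from WT too, with 0.25 ± 0.14 log2 in EpiRE against 1.09 ± 0.16 in WT (difference curve 0.94 ± 0.22, adjusted p = 0.0137, limma). BRE also differed from RERE (1.09 ± 0.22, adjusted p = 0.00294, limma) and from EpiRE (0.86 ± 0.19, adjusted p = 0.00522, limma). The difference between BRE and WT was called under every alternative. The others were lost without replicate 2 of every group, that of EpiRE from WT also without replicate 1 or 3, and that of BRE from RERE also without replicate 3. At ZT20, where WT mice had 2.04 to 2.43 RPKM, RERE mice had 1.501 to 1.91, EpiRE mice 1.16 to 1.70 and BRE mice 1.35 to 1.45, levels that stand side by side from tables normalized apart.

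Markers of dividing cells moved over the same day. The summed level of 6 of them (Mki67, Top2a, Ccnb1, Cdk1, Mcm2 and Pcna) ran from 125 to 205 RPKM in WT with a fitted peak at ZT19.6, from 108 to 222 in RERE at ZT20.2, from 112 to 216 in EpiRE at ZT13.6 and from 95.1 to 222 in BRE at ZT2.4. All 6 were called in WT and in RERE, 1 in EpiRE and 2 in BRE, and none was at 0. Their part in the Eif5a2 result was not tested.

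**Figure D5:**
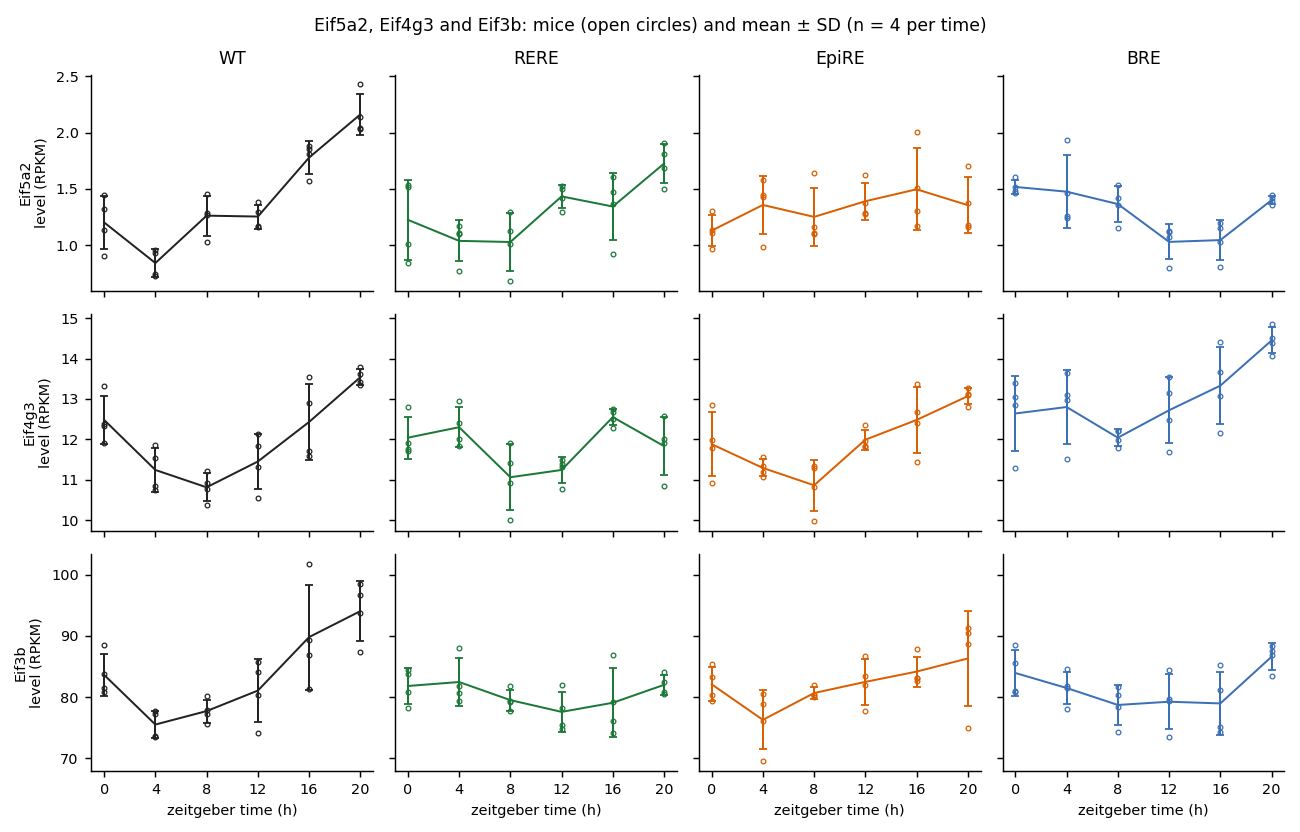
Level in RPKM over zeitgeber time for Eif5a2, Eif4g3 and Eif3b in each genotype, with open circles for mice and lines for the mean ± SD (n = 4 per time). Eif5a2 is highest at ZT20 in WT and RERE and at ZT0 in BRE, and Eif4g3 is highest at ZT20 in WT, EpiRE and BRE.

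Between BRE and WT, 9 of the 53 genes (17.0%) differed in rhythm, against 20.2% of all genes, and 5 of the 9 belonged to the cap complex and its helpers. One of the 9 is Eif3b, given as a description: 0.13 ± 0.039 log2 in BRE and 0.30 ± 0.046 in WT. Eif4h had its rhythm in BRE, as above (difference curve 0.22 ± 0.053, adjusted p = 0.00737, limma). Eif4a3, a helicase that marks exon junctions, had a fitted 0.22 ± 0.055 log2 at ZT17.7 in WT and 0.16 ± 0.057 at ZT1.5 in BRE (adjusted p = 0.00828 for the difference, limma). The fitted peaks of Eif4e3 were at ZT10.8 in WT and ZT19.3 in BRE (adjusted p = 0.00886 for the difference, limma), and those of Eif4b at ZT7.7 and ZT14.3 (adjusted p = 0.00988, limma). These 3 genes were called rhythmic in WT and not in BRE, where their adjusted p were 0.103, 0.186 and 0.0724.

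Eif2b3, Eif4e and Eif1ad completed the list, with adjusted p of 0.0117, 0.0295 and 0.0359 (limma). Eif1ad, a little-studied relative of the start codon factor eIF1A, shares 428 exonic bases with Banf1. After the rescaling by median ratios 5 of the 53 differed (9.43%, against 18.7% of all genes), and Eif4h no longer did (adjusted p = 0.117), nor did Eif4e (0.118) and Eif1ad (0.0698).

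Keratinocyte markers changed rhythm in the comparisons with BRE as well. Of the differentiated markers tested, 4 of 6 (Ivl, Krtdap, Krt10 and Sbsn) differed between BRE and WT, and the same count between BRE and EpiRE. Of the basal markers, 3 of 7 differed in each pair: Col17a1, Itga6 and Krt5 against WT, and Col17a1, Itga6 and Krt15 against EpiRE. The summed differentiated markers ran from 6930 to 17400 RPKM in WT with a fitted peak at ZT23.5, from 5890 to 15800 in EpiRE at ZT22.1, and from 9100 to 20000 in BRE at ZT10.7. The summed basal markers ran from 11400 to 18900 in WT at ZT14.3, from 12600 to 18000 in EpiRE at ZT11.5, and from 10600 to 16700 in BRE at ZT23.9. Their part in the differences of the initiation factors was not tested.

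EpiRE differed from WT in 2 of the 53 genes, or 3.77%, against 8.51% of all genes. Beside Eif5a2 this was Eif2b2, a subunit of the exchange factor. In WT its 4 mice at ZT16 had 15.4, 16.5, 17.3 and 17.4 RPKM, above every mouse at ZT4, ZT8 and ZT12. In EpiRE the values at ZT16 were 13.3, 14.3, 14.5 and 15.3, within the span from the lowest value at ZT4 to the highest at ZT8. The rhythm of Eif2b2 was called in WT and not in EpiRE (adjusted p = 0.075 in EpiRE, limma). The fitted peaks were at ZT18.2 in WT and ZT12.0 in EpiRE, with a difference curve of 0.38 ± 0.092 log2 (adjusted p = 0.0167, limma). Rescaling ended this call (adjusted p = 0.0799), as did leaving out replicate 1, 2 or 3 of every group.

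EpiRE and BRE differed in 4 of the 53 genes (7.55%), against 13.9% of all genes. Beside Eif5a2, Eif2ak4, the kinase GCN2 that senses uncharged tRNA, had fitted peaks at ZT14.8 in EpiRE and ZT22.6 in BRE, though its rhythm was called in neither genotype (adjusted p = 0.0717 and 0.0606, limma). Its BRE mice had 3.14, 3.18, 3.33 and 3.44 RPKM at ZT20, all above their 2.12, 2.39, 2.53 and 2.66 at ZT16. In EpiRE the 4 mice at ZT16 had 2.73, 3.12, 3.13 and 3.34, all above the 2.13, 2.198, 2.63 and 2.67 at ZT0. The difference curve was 0.55 ± 0.13 log2 (adjusted p = 0.0108, limma), and the call was lost without replicate 2 or replicate 4 of every group (0.141 and 0.146). Eif5a and Eif4a1 passed narrowly (adjusted p = 0.0459 and 0.0488, limma), and each was lost in 8 of 11 alternatives.

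RERE and BRE differed in 1 of the 53, Eif5a2, against 4.79% of all genes. RERE and EpiRE differed in 0 of the 53 by limma at an adjusted p below 0.05, against 4.04% of all genes. At an unadjusted p below 0.05, 8 of the 53 passed in that pair, against 19.1% of all genes.

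The genes around initiation were read from lists. Of 12 genes for elongation and termination, WT had 9 called, RERE 2, EpiRE 0 and BRE 1, where the shares over all genes were 34.4, 16.4, 2.87 and 17.1% in that order. The counts of the lists below stand beside the same shares. In WT, Abce1, which recycles ribosomes, peaked at ZT18.9 with 0.56 ± 0.076 log2, and the mitochondrial elongation factor gene Tufm at ZT17.9 with 0.30 ± 0.047. Eef2k, the kinase that inhibits elongation factor eEF2, peaked at ZT12.1 with 0.40 ± 0.072 in WT and at ZT11.3 with 0.49 ± 0.091 in RERE.

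Of 16 genes of mTORC1 and S6 kinase signalling, WT had 7 called, RERE 3, EpiRE 0 and BRE 3. Deptor, an mTOR inhibitor, moved by 0.94 ± 0.10 log2 in WT with a peak at ZT12.2 (adjusted p = 4.05e-06, limma) and by 0.80 ± 0.15 in RERE at ZT13.5 (adjusted p = 0.00297, limma). Pdcd4, an inhibitor of eIF4A, peaked at ZT3.9 in WT with 0.50 ± 0.058 (adjusted p = 7.5e-06, limma). Pdcd4 was also called in RERE, and both genes were called in BRE, though their rhythms there differed from those in WT.

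Of 14 genes of the integrated stress response, the programme downstream of eIF2 phosphorylation, WT had 3 called, RERE 1, EpiRE 0 and BRE 2. Asns, asparagine synthetase, moved by 0.46 ± 0.078 log2 at ZT19.4 in WT and by 0.38 ± 0.081 at ZT0.93 in BRE. Of 14 mRNA-binding partners of the factors, WT had 8 called, RERE 3, EpiRE 0 and BRE 2. Mknk2, which encodes the eIF4E kinase MNK2, moved by 0.64 ± 0.081 at ZT10.3 in WT and by 0.63 ± 0.10 at ZT11.8 in RERE. Its difference in EpiRE was 0.22 ± 0.083 (adjusted p = 0.238, limma). In BRE Mknk2 was called as well, with a rhythm that differed from that in WT.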

How the data were processed

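Members and gene lists were chosen with earlier results of these data known. Trimming (Trimmomatic 0.36), alignment to mm10 (HISAT2 2.2.1, SAMtools 1.3.1), counting (featureCounts 1.6.0) and normalization (edgeR) are named in the submitters' processing notes. The authors deposited log2 values per library, 1 table per genotype, which behave as log2 RPKM with a prior count inferred as 2 reads, so fold changes of low genes are understated. The deposited q-values of JTK_CYCLE and BIOCYCLE are the authors' own. Another 96 per-sample columns repeat the values and were not used. Depth was estimated from the floor the prior count leaves.

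The 12144 genes averaging 1 RPKM or more were fitted with limma 3.58.1 (R 4.3.3, moderated with a mean-variance trend), and p-values were adjusted over all of them (Benjamini-Hochberg). Named genes were Eif3b, the 6 called members of smallest adjusted p per genotype, the 5 per comparison, up to 3 per gene list and any needed to account for a count. Replicate numbers did not pair libraries: mean correlations of deviations were -0.0031, 0.028, -0.021 and -0.0067. Nothing says how mice were batched. On simulated rhythms of 0.2, 0.3, 0.5 and 1 log2 in the WT design, 10, 26, 60 and 94% were recovered. Each size was given to 50 genes, and the other 11944 had no rhythm. With so few rhythmic genes the adjustment is stricter than in the WT data, where 34.4% of genes were called. These shares therefore do not give the recovery in the WT data. Alternatives covered filters, a pseudocount of 1, scaling, time as 6 levels, the replicate block and left-out replicates.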

Additional observations from a re-analysis of the deposited data

Results flagged for a closer look

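In 4 of 96 groups of 4 mice checked, 1 library stood apart from the other 3, and chance gives about 1 in 20. Eif3b in EpiRE at ZT16 was 87.8 RPKM in replicate 4, with the others at 82.6 to 83.1. At ZT20 it was 74.9 in replicate 3, with the others at 88.6 to 91.2. Eif5a2 was 1.64 RPKM in replicate 2 of EpiRE at ZT8, with the others at 1.1 to 1.16, and 0.798 in replicate 2 of BRE at ZT12, with the others at 1.08 to 1.13.

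A difference in rhythm between genotypes passed for the following genes, with limma's adjusted p given for each. For EpiRE against WT it was 0.0137 for Eif5a2 and 0.0167 for Eif2b2. For BRE against WT it was 1.88e-06 for Eif5a2, 0.00737 for Eif4h, 0.00828 for Eif4a3, 0.00886 for Eif4e3, 0.00988 for Eif4b, 0.0117 for Eif2b3, 0.0295 for Eif4e and 0.0359 for Eif1ad. For RERE against BRE it was 0.00294 for Eif5a2. For EpiRE against BRE it was 0.00522 for Eif5a2, 0.0108 for Eif2ak4, 0.0459 for Eif5a and 0.0488 for Eif4a1.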

How the results depend on the processing

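Of 27 named results past the threshold, 4 stayed past it under every alternative run: the WT rhythms of Eif4g3, Eif5a2 and Eif3f and the difference of Eif5a2 between BRE and WT. Adding a pseudocount of 1 changed none of the 30 named results, and leaving out replicate 2 throughout weakened 20 of them. Leaving out 1 replicate number at a time gave 10 to 19 rhythmic genes in WT, 1 to 2 in RERE, 0 to 7 in EpiRE and 0 to 7 in BRE. For the differences the ranges were 0 to 0 for RERE against WT, 0 to 7 for EpiRE against WT, 2 to 7 for BRE against WT, 0 to 0 for RERE against EpiRE, 0 to 1 for RERE against BRE and 0 to 3 for EpiRE against BRE. With time as 6 levels, counts were 1 in RERE, 0 for RERE against WT and 5 for BRE against WT. With no filter on low values they were 1 in EpiRE, 3 in BRE, 0 for RERE against WT and 2 for EpiRE against BRE. A filter at a mean of 5 removes Eif5a2, and gave 3 in BRE, 1 for EpiRE against WT, 0 for RERE against BRE and 1 for EpiRE against BRE. Rescaling by median ratios gave 9 in BRE, 0 for RERE against WT, 5 for BRE against WT and 2 for EpiRE against BRE. With the replicate block, EpiRE against BRE gave 2, and no other count of genes moved by over 1.5 times. The library least like the others was left out in each genotype as an alternative chosen after seeing the data (WT ZT8 replicate 1, RERE ZT8 replicate 2, EpiRE ZT8 replicate 4 and BRE ZT0 replicate 1), and then 22 genes were called in WT, 9 in BRE and 13 for BRE against WT. The cause of these changes was not tested, apart from the filter. Depth limits Eif5a2 most, at about 108 reads per library.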
